A study of Eriobotrya japonica with 9 samples.

Results

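Nitrogen, glutamate and aspartate metabolism was described in loquat (Eriobotrya japonica) leaves through 95 of the 43996 genes of the expression table. A gene was a member when its KEGG annotation placed it on the map of nitrogen metabolism or on the map of alanine, aspartate and glutamate metabolism, and on none of the maps of cysteine and methionine metabolism, carbon fixation, or amino sugar and nucleotide sugar metabolism. No expression value entered this choice. Of the members, 67 lay on the alanine, aspartate and glutamate map, 48 on the nitrogen map and 20 on both, and 14 genes on either map were left out because they also lay on an excluded map. The table pairs no gene with a name, so each member is described by the molecular function term it carries there. A total of 70 members carried such a term and 25 carried none.

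Seedling leaves were sampled on day 10 in 3 groups of 3 libraries. CK received water. ST received water and then 200 mmol/L NaCl. MTST was irrigated at the roots with 150 µmol/L melatonin, an indoleamine made by plants and animals, and was then exposed to the same 200 mmol/L NaCl, so ST against CK addresses salt, and MTST against ST addresses melatonin given before salt. No group received melatonin without salt. The study calls the samples biological replicates without saying whether each was 1 plant or a pool, and the 3 comparisons share their groups, so their results are not independent of each other.

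Plants take up nitrogen mainly as nitrate, reduce it to nitrite and then to ammonium, and fix ammonium into organic form with glutamine synthetase and glutamate synthase, which pass it to glutamine and glutamate. In leaves a large part of the ammonium handled this way is released by photorespiration, and the ferredoxin-dependent glutamate synthase and the plastid glutamine synthetase take it back up. Glutamate then feeds aspartate, asparagine, arginine, proline, the purines and pyrimidines and gamma-aminobutyrate (GABA), an amino acid outside proteins that builds up in stressed plants. Carbonic anhydrase, which interconverts CO2 and bicarbonate, is drawn on the same nitrogen map.

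Values are TPM, the number of transcripts of a gene in a fixed total of transcripts, which is scaled per gene length and can be compared between genes. The libraries held 13048770 to 14468499 reads. Members had 1.36% ± 0.0869 of all TPM in CK, 0.855% ± 0.0262 in ST and 1.25% ± 0.0696 in MTST (SD, n = 3). The leaf label was checked on the genes of the photosynthesis and antenna maps, which held 12.6% ± 0.868, 7.24% ± 0.397 and 10.6% ± 0.293 of TPM in the same order. The 10 most abundant genes of each library held 11.3% ± 0.193, 5.87% ± 0.285 and 9.77% ± 0.516. On the TPM scale the fold changes of all genes were shifted, with a median log2 value over all 23641 tested genes of 0.41 for ST minus CK, -0.22 for MTST minus ST and 0.19 for MTST minus CK. With median-of-ratios scaling, which centres the typical gene, these medians were 0.014, -0.0019 and 0.0086. A member is therefore said to rise or fall only where limma's adjusted p was at most 0.05 in that direction under both scalings, unless a single scaling is named. In whole leaves, a loss of cells of a type and less RNA per cell of that type cannot be told apart.

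Of the 95 members, 74 were tested, since 3 or more libraries showed 1 TPM or more. The other 21 stayed at or below 4.41 TPM in every library, and 5 of them were at 0 in all 9. The tested members had 9.67 to 33202 reads per library on average, with a median of 431.

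Under salt, most of the abundant members were lower and several weakly expressed ones were higher. In ST minus CK, 14 members rose (18.9% of those tested, against 22.8% of all tested genes) and 19 fell (25.7%, against 10.6% of all). On the TPM scale alone 31 rose, where 52.8% of all genes were called higher, and 19 fell. With median-of-ratios scaling 14 rose and 29 fell, where 22.8% and 23.4% of all genes were called. At a fold change of at least 2 on the TPM scale, 8 rose and 10 fell, against 15.6% and 3.39% of all genes. The median log2 fold change over the tested members was 0.17 on the TPM scale and -0.25 with median-of-ratios scaling, both below the medians of all genes given above.

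With melatonin before salt, most of the abundant members were higher than with salt alone. In MTST minus ST, 18 members rose (24.3%, against 7.89% of all tested genes) and 8 fell (10.8%, against 13.7%). On the TPM scale alone 18 rose and 20 fell, where 7.9% and 29.8% of all genes were called, and the count of 20 was 11 without ST replicate 3, 13 without MTST replicate 1 and 10 without MTST replicate 2. At a fold change of at least 2, 4 rose and 6 fell on that scale, where 1.14% and 7.21% of all genes were called. With median-of-ratios scaling 25 rose and 8 fell, where 15.1% and 13.7% of all genes were called. The median log2 fold change of the tested members was -0.057, or 0.17 with median-of-ratios scaling. In MTST minus CK, 12 members rose (16.2%, against 17.1% of all) and 18 fell (24.3%, against 10.9%). The 18 called lower there on the TPM scale were 10 without CK replicate 1 and 11 without MTST replicate 2, and the 21 called higher on that scale were 28.4% of the tested members, against 29.7% of all genes. With median-of-ratios scaling 12 rose and 25 fell, where 17.1% and 18.7% of all genes were called. At a fold change of at least 2 on the TPM scale, 5 rose and 4 fell, against 5.98% and 3.14%.

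**Figure D1:**
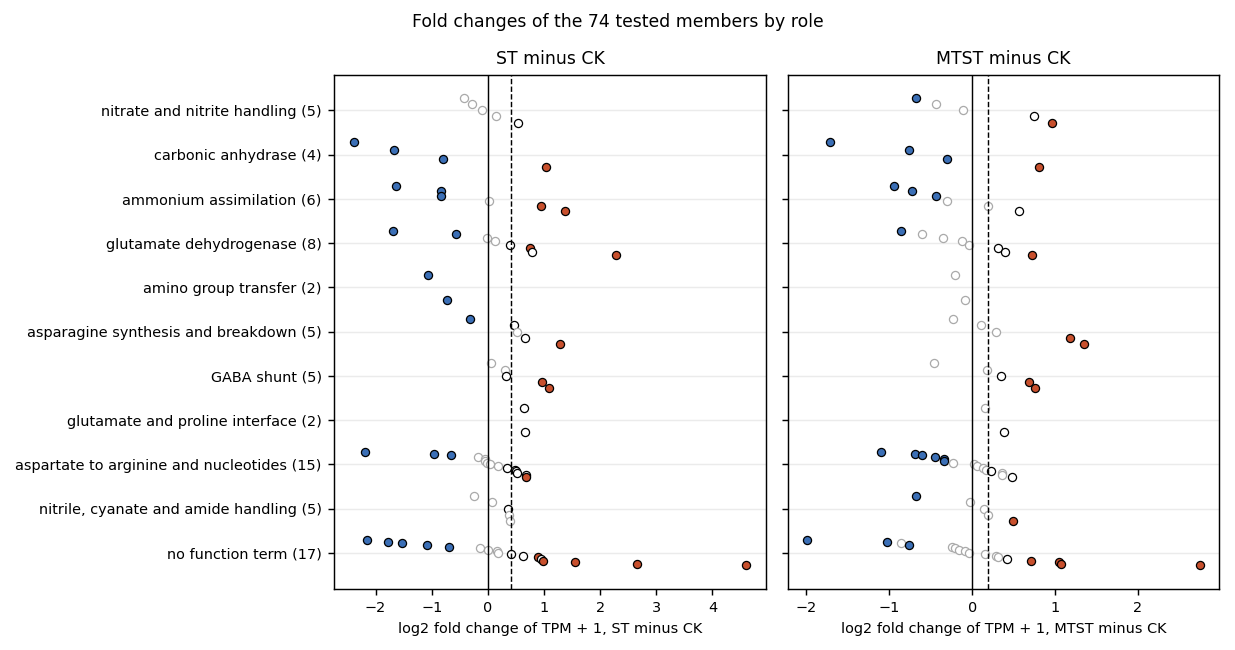
Log2 fold changes of TPM + 1 for the 74 tested members, 1 point each, grouped by role with the number tested in parentheses, for ST minus CK (left) and MTST minus CK (right). Filled points passed the test under both scalings (red higher, blue lower), open points with a black edge passed only on the TPM scale, and grey open points did not pass on the TPM scale. The dashed line is the median over all tested genes (0.41 and 0.19). In ST minus CK 3 of the 4 carbonic anhydrases and both members of the amino group transfer list lie left of 0, and the point at the far right is the member without a function term at 4.60.

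The split by abundance was looked at after the values were seen. Of the 7 members with a mean of at least 300 TPM over the 9 libraries, which together held 81.8% of the members' TPM in CK, 6 fell and 1 rose in ST, and 6 rose in MTST minus ST. Over all tested genes 22.8% rose and 10.6% fell in ST, and 7.89% rose in MTST minus ST. Among the 67 tested members below 300 TPM, 13 rose (19.4%) and 13 fell (19.4%) in ST minus CK. Of the 38 tested members with a chloroplast term in their annotation, 4 rose (10.5%) and 13 fell (34.2%) in ST. Of the 36 without one, 10 rose (27.8%) and 6 fell (16.7%), and the difference between these groups of members was not tested. The TPM share of the photosynthesis and antenna maps, given above, was also lowest in ST. Of the 90 tested genes on those maps, 3 rose and 65 fell in ST, and 63 rose and 6 fell in MTST minus ST. The same pattern was therefore seen outside the members, and its part in the result was not tested. The abundant members were not set against equally abundant genes outside the list.

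None of the 5 tested members for nitrate and nitrite handling rose or fell in ST under both scalings, where 22.8% and 10.6% of all tested genes did. With median-of-ratios scaling alone 3 were lower, where 23.4% of all genes were called. On the TPM scale alone 1 was higher, where 52.8% of all genes were called. This was the transporter Ej00016438 (0.54, limma adjusted p = 0.0076). Nitrate reductase makes nitrite from nitrate and is the entry step of the pathway. Its main gene, Ej00031477, had 198, 217 and 152 TPM in CK, 97.3, 193 and 144 in ST and 133, 141 and 140 in MTST. The ST values overlapped with those of CK, and the fold change of -0.42 on the log2 scale (SE 0.21) missed the threshold (limma adjusted p = 0.1), while with median-of-ratios scaling it was -0.87 (adjusted p = 0.0095), and it passed without CK replicate 3 or ST replicate 2. The weaker nitrate reductase Ej00061346 had 4.19 ± 0.937, 3.35 ± 1.24 and 2.21 ± 0.263 TPM in CK, ST and MTST. It was lower in MTST than in CK (-0.68, adjusted p = 0.039), a call that was lost without any 1 of CK replicates 1 and 2, ST replicate 3 or the 3 MTST libraries.

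The member whose term is nitrite reductase (NO-forming), Ej00048704, had the highest mean of this list over the 9 libraries, although the nitrate reductase Ej00031477 was above it in every CK library. Nitrite reductases take nitrite on to the next product. Its level was 138, 140 and 127 TPM in CK, 107, 201 and 152 in ST and 225, 219 and 236 in MTST, so every MTST library was above every other one while ST straddled CK. ST minus CK did not pass on either scaling (0.14, adjusted p = 0.52, and -0.31, adjusted p = 0.2), although it passed without ST replicate 1. MTST was higher than ST by 0.61 (SE 0.18, adjusted p = 0.023), and this call was lost without ST replicate 3 or any 1 MTST library (adjusted p up to 0.0702). MTST was higher than CK by 0.74 on the TPM scale (adjusted p = 0.0081), with 0.53 and an adjusted p of 0.051 under median-of-ratios scaling.

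Of the 5 members with a nitrate transporter term, 2 were tested. Ej00016438 had 8.9, 10.7 and 9.1 TPM in CK, 16.6, 11.3 and 15.4 in ST and 18.6, 21.1 and 18.7 in MTST, and the MTST libraries were above all others. It rose in MTST minus CK by 0.96 (SE 0.14, limma adjusted p = 0.00057). Its rise over ST of 0.42 (adjusted p = 0.041) was lost without ST replicate 2 or 3, CK replicate 1 or any 1 MTST library. The more abundant Ej00034359 had 83.5 ± 13.8, 76.6 ± 8.04 and 76.3 ± 2.69 TPM in CK, ST and MTST and passed in no comparison on the TPM scale. With median-of-ratios scaling it was lower in ST than in CK (-0.56), and ST minus CK also passed on the TPM scale without CK replicate 3.

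Of the 4 carbonic anhydrase genes, 3 fell under salt and 1 rose, and 2 of those that fell were among the most abundant members. Among all tested genes 10.6% fell and 22.8% rose in ST. Ej00017889 had 3825, 3868 and 3545 TPM in CK, 1180, 1170 and 1163 in ST and 2183, 2078 and 2374 in MTST. The groups did not overlap, and MTST lay between the others. ST was at 0.313 of the CK mean, a log2 change of -1.68 (SE 0.11, limma adjusted p = 1.6e-06), MTST was 0.91 above ST (adjusted p = 0.00028) and remained 0.76 below CK, a change of -0.76 (adjusted p = 0.0004).

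The other carbonic anhydrases that fell were Ej00073126 and Ej00079448. Ej00073126 had 1784, 1714 and 1978 TPM in CK, 1048, 1041 and 1031 in ST and 1465, 1411 and 1555 in MTST, with changes of -0.81 (adjusted p = 7.9e-05) and 0.50 (adjusted p = 0.0036) in ST minus CK and MTST minus ST. Ej00079448 was far weaker, at 19.5, 21.4 and 10.8 TPM in CK, 2.34, 2.11 and 2.64 in ST and 4.7, 4.22 and 4.08 in MTST, and fell by 2.39 on the log2 scale in ST (adjusted p = 1.3e-05). Its rise of 0.67 in MTST minus ST (adjusted p = 0.035) was lost without any 1 of the ST or MTST libraries.

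The fourth carbonic anhydrase did the opposite. Ej00011513 had 30.7, 23.9 and 33.6 TPM in CK, 66.2, 58.1 and 57.4 in ST and 57.1, 51.2 and 47.9 in MTST. It was above CK in every salt library, by 1.03 in ST (SE 0.13, limma adjusted p = 8.1e-05) and by 0.81 in MTST (adjusted p = 0.00074), while MTST minus ST did not pass (-0.22, 95% interval -0.50 to 0.06). The summed level of the 4 genes, taken on the TPM scale only, was 5618 ± 46.4 in CK, 2274 ± 21.3 in ST and 3744 ± 220 in MTST. The 2 most abundant ones held 41.1% ± 2.42 of the members' TPM in CK, 25.9% ± 0.874 in ST and 29.6% ± 1.14 in MTST.

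**Figure D2:**
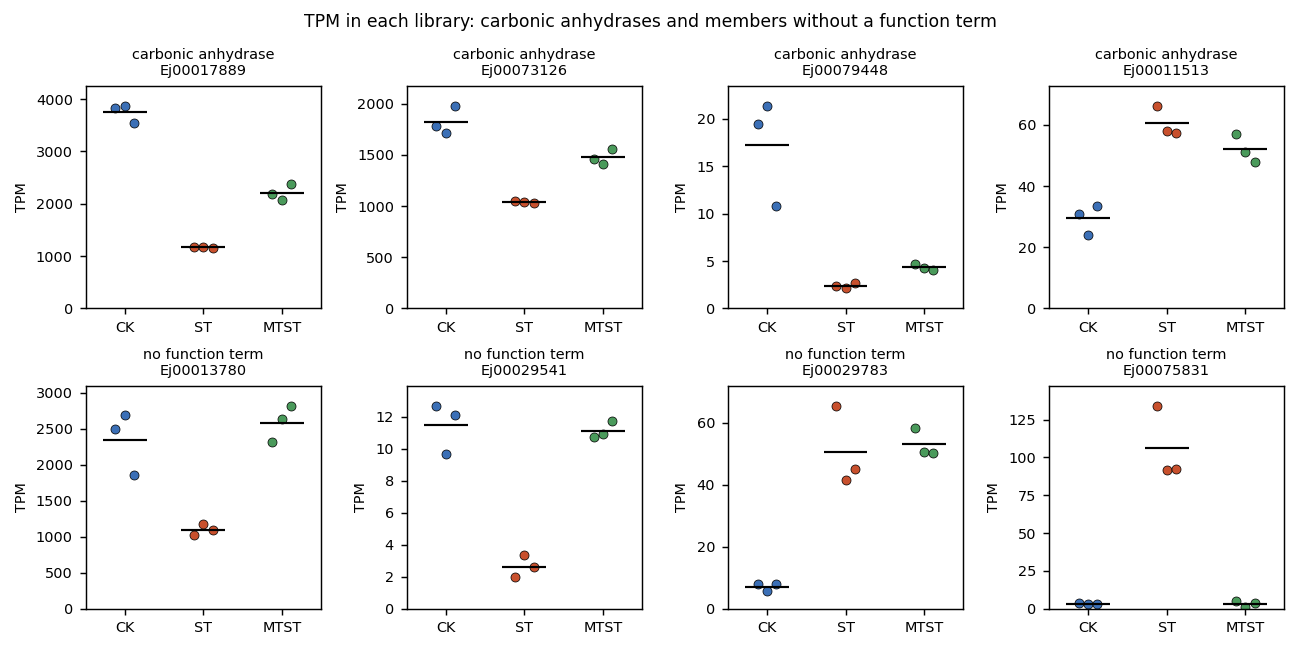
TPM in each library (points) with the group mean (line, n = 3), on linear axes from 0, for the 4 carbonic anhydrases (top) and 4 members that carry no function term (bottom). The ST points of Ej00017889 lie at 1163 to 1180 TPM, below all CK and MTST points. Ej00029783 is high in both salt groups and Ej00075831 in ST alone.

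Both genes with a glutamine synthetase term, the enzyme that joins ammonium to glutamate, fell in ST and rose part of the way back in MTST. Ej00040364 had 584, 600 and 593 TPM in CK, 358, 313 and 330 in ST and 430, 410 and 470 in MTST. No 2 groups overlapped, and the changes were -0.83 in ST minus CK (SE 0.09, limma adjusted p = 2.8e-05), 0.39 in MTST minus ST (adjusted p = 0.0065) and -0.44 in MTST minus CK (adjusted p = 0.0026). Ej00080852 had 307, 329 and 295 TPM, then 113, 89.1 and 96.1, and then 161, 144 and 178 in CK, ST and MTST. Its fall was deeper, at -1.64 (SE 0.11, adjusted p = 1.9e-06), followed by 0.69 (adjusted p = 0.0012) in MTST minus ST.

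Of the 4 tested glutamate synthases, which pass nitrogen from glutamine to glutamate, the only ferredoxin-dependent one fell in ST, 2 of the 3 NADH-dependent ones rose and the other did not pass. The ferredoxin-dependent gene Ej00022657 had 242, 250 and 209 TPM in CK, 127, 141 and 122 in ST and 142, 125 and 155 in MTST. It fell in ST by 0.84 on the log2 scale (SE 0.11, limma adjusted p = 9.4e-05), and its MTST values overlapped with those of ST (0.11, adjusted p = 0.44, or 0.35, adjusted p = 0.028, with median-of-ratios scaling). A second ferredoxin-dependent member was too weak to be tested.

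Among the NADH-dependent genes, Ej00050815 had 17.5, 18.7 and 16.4 TPM in CK, 43.1, 52.1 and 45.9 in ST and 30.5, 20.3 and 30 in MTST. ST was 2.68-fold above CK (log2 1.37, SE 0.15, limma adjusted p = 3.7e-05), and MTST was lower than ST by -0.80 (adjusted p = 0.0028). MTST remained above CK on the TPM scale (0.57, adjusted p = 0.012), a call lost with median-of-ratios scaling (0.37, adjusted p = 0.07) and without MTST replicate 1 or 3. Ej00006815 had 4.61, 5.07 and 6.57 TPM in CK, 13, 10.8 and 10 in ST and 4.7, 4.33 and 3.47 in MTST. It rose by 0.94 (adjusted p = 0.00064) and then fell by 1.25 in MTST minus ST (adjusted p = 0.00047). The third gene, Ej00071334, had 10.3 ± 2.96, 10.4 ± 2.46 and 11.6 ± 1.91 TPM and passed in no comparison.

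The ratio of the main NADH-dependent to the ferredoxin-dependent gene does not depend on the scaling between libraries. It was 0.0721, 0.0750 and 0.0786 in CK, 0.340, 0.369 and 0.376 in ST and 0.215, 0.162 and 0.194 in MTST. The mean was 4.81 times as high in ST as in CK and 0.526 times as high in MTST as in ST, with no overlap in any of the 3 comparisons. The exact permutation test (two-sided) gave p = 0.1 for each, which is the smallest that the 20 arrangements of 3 against 3 allow, and the ratio was chosen after the values had been seen. The ferredoxin-dependent gene was still the more abundant one in every library.

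**Figure D3:**
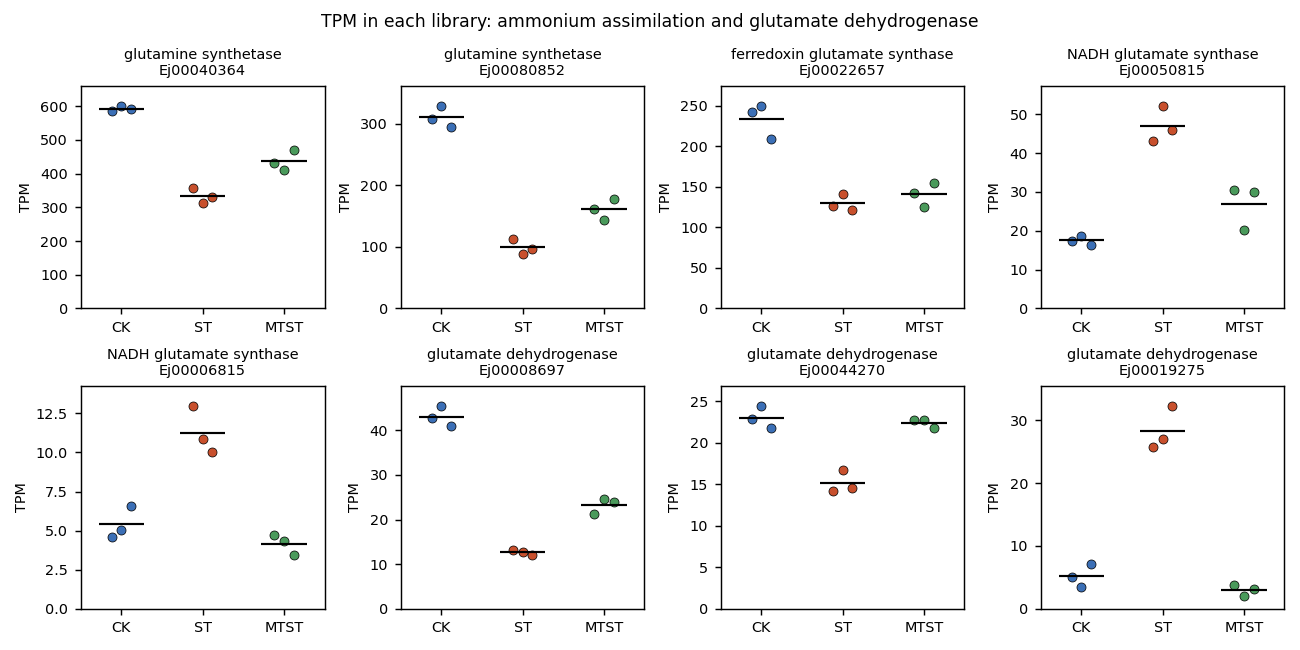
TPM in each library (points) with the group mean (line, n = 3), on linear axes from 0, for 2 glutamine synthetases, the ferredoxin-dependent and 2 NADH-dependent glutamate synthases and 3 glutamate dehydrogenases. The top row holds both glutamine synthetases, which are lowest in ST, and Ej00050815, whose ST points lie at 43.1 to 52.1 TPM. The last panel is Ej00019275, at 25.8 to 32.3 TPM in ST and at most 7.19 in the other groups.

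Glutamate dehydrogenase, which releases ammonium from glutamate or adds it in reverse, had 10 members, of which 8 were tested, and these did not move as a block. In ST minus CK 2 rose (25%), 2 fell (25%) and the others did not pass under both scalings. Among all tested genes 22.8% rose and 10.6% fell. On the TPM scale their summed level was 126 ± 4.54 in CK, 137 ± 9.28 in ST and 120 ± 4.40 in MTST. The exact permutation test of this sum gave p = 0.3 for ST against CK. No sum was taken with median-of-ratios scaling. The median log2 fold change of the 8 in ST minus CK was 0.26 on the TPM scale and -0.15 with median-of-ratios scaling.

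The largest change in this list was in Ej00019275, with 5.03, 3.42 and 7.19 TPM in CK, 25.8, 27 and 32.3 in ST and 3.84, 2.05 and 3.18 in MTST. The ST libraries stood 5.44-fold above CK (log2 2.28, SE 0.23, limma adjusted p = 2.6e-05), and MTST overlapped with CK (-2.89 against ST, adjusted p = 4.8e-05). MTST minus CK was -0.61 (adjusted p = 0.061), with -0.79 and an adjusted p of 0.025 under median-of-ratios scaling. The most abundant member on average, Ej00008697, moved the other way, with 42.8, 45.4 and 41 TPM in CK, 13.2, 12.8 and 12 in ST and 21.3, 24.5 and 23.9 in MTST. It fell by 1.69 in ST (SE 0.09, adjusted p = 6.2e-07), and MTST rose by 0.83 over ST (adjusted p = 0.00021).

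The ratio of these 2 genes, also chosen after their values were seen, was 0.0753 to 0.176 in CK, 1.95 to 2.69 in ST and 0.0835 to 0.180 in MTST. Ej00019275 was above Ej00008697 in the ST libraries only. The 2 genes had the largest rise and the deepest fall of this list in ST minus CK. A higher ratio in ST than in CK was therefore fixed by the choice, and no p-value is given for it. Among the other dehydrogenases, Ej00044270 fell from 23 ± 1.30 to 15.2 ± 1.36 TPM (-0.58, limma adjusted p = 0.00045) and was at 22.4 ± 0.562 in MTST (0.54 over ST, adjusted p = 0.002). Ej00076081 rose from 11.6 ± 1.03 to 20.1 ± 0.692 TPM (0.74, adjusted p = 0.00023) and was at 15.7 ± 1.69 in MTST. Ej00094457 and Ej00090943 were higher in ST on the TPM scale only.

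**Figure D4:**
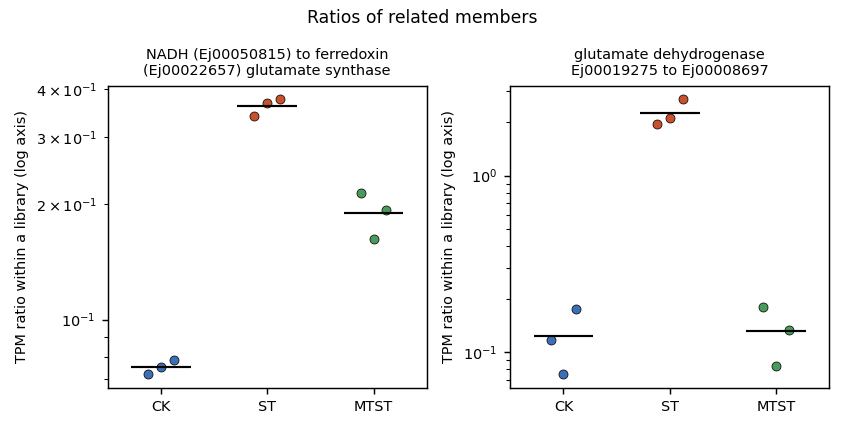
Ratio of the TPM of 2 members within each library (points) and the group mean (line, n = 3), on log axes. Left, the NADH-dependent Ej00050815 to the ferredoxin-dependent glutamate synthase Ej00022657, at 0.340 to 0.376 in ST and at most 0.0786 in CK. Right, the glutamate dehydrogenases Ej00019275 to Ej00008697, above 1 in the 3 ST libraries and at most 0.180 in CK and MTST.

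Both members with a transaminase term for serine or alanine and glyoxylate, an enzyme of photorespiration that makes glycine, were abundant. Like the glutamine synthetases they fell in ST and rose in MTST over ST, but neither was lower in MTST than in CK under both scalings. Ej00094251 had 1128, 1174 and 986 TPM in CK, 645, 680 and 646 in ST and 962, 1031 and 1113 in MTST, and Ej00058278 had 860, 903 and 734, then 385, 424 and 382, and then 683, 701 and 779. They fell in ST by 0.73 (SE 0.10, limma adjusted p = 0.00016) and by 1.06 (adjusted p = 2e-05) and rose in MTST over ST by 0.65 (adjusted p = 0.0011) and by 0.86 (adjusted p = 0.00034). MTST overlapped with CK for both, with differences of -0.08 (95% interval -0.30 to 0.14) and -0.20 (-0.43 to 0.03), the second of which passed with median-of-ratios scaling (-0.42, adjusted p = 0.012).

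Asparaginases, which free ammonium from asparagine, differed from each other. The main gene, Ej00081741, had 135, 144 and 108 TPM in CK, 237, 166 and 208 in ST and 251, 293 and 332 in MTST, with every MTST library above every CK and ST library. It rose by 1.18 in MTST minus CK (SE 0.16, limma adjusted p = 0.0003). Its increase in ST passed on the TPM scale (0.65, adjusted p = 0.0044) but not with median-of-ratios scaling (0.20, adjusted p = 0.29). MTST minus ST was 0.52 (adjusted p = 0.024), a call lost without ST replicate 2 or 3 or MTST replicate 2 or 3.

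Ej00065407 had 4.37, 8.72 and 3.8 TPM in CK, 13.3, 13.9 and 15.7 in ST and 15.7, 18.4 and 11.9 in MTST. It was above CK in both salt groups, by 1.28 in ST (SE 0.25, limma adjusted p = 0.0013) and by 1.35 in MTST (adjusted p = 0.0018). Ej00065792 had 22.9 ± 0.264, 18.3 ± 3.02 and 28.2 ± 3.86 TPM in CK, ST and MTST. It was higher in MTST than in ST (0.61, adjusted p = 0.0052), and MTST minus CK did not pass (0.28, adjusted p = 0.1). Its fall of 0.32 in ST minus CK (adjusted p = 0.048) was lost without any 1 of the 3 CK libraries, ST replicates 1 and 2 or MTST replicates 1 and 3. Ej00045643 could not be placed, since its ST libraries had 35.5, 9.78 and 29.4 TPM and its MTST libraries 5.21, 28 and 12.8. Asparagine synthetase, which builds asparagine from aspartate with nitrogen from glutamine, had 1 tested member. Ej00037021 had 43.1 ± 1.44, 59.8 ± 3.51 and 46.6 ± 1.91 TPM, and its ST changes passed on the TPM scale only (0.46 against CK, -0.35 for MTST minus ST).

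In the GABA shunt, which turns glutamate into succinate by way of GABA, both tested genes of the step that removes GABA rose. Another gene with this term, Ej00021734, was at 0 TPM in every library. The GABA transaminase Ej00057310 had 22.6, 20.3 and 21.5 TPM in CK, 43.5, 42.1 and 43.2 in ST and 33.1, 34.3 and 38.3 in MTST. The groups did not overlap, and the gene rose by 0.97 in ST (SE 0.08, limma adjusted p = 9.6e-06) and by 0.69 in MTST minus CK (adjusted p = 0.00019). The fall from ST to MTST of 0.28 passed on the TPM scale (adjusted p = 0.025) but not with median-of-ratios scaling, nor without ST replicate 1 or 3 or MTST replicate 1 or 2. Its partner Ej00038091 had 12.7 ± 0.262, 28.1 ± 1.97 and 22.2 ± 2.19 TPM and rose by 1.08 in ST (adjusted p = 1.2e-05) and by 0.76 in MTST minus CK (adjusted p = 0.00027).

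No tested member with a term for the step before or after rose or fell under both scalings. Another 2 members share the map combination of the glutamate decarboxylase genes and carry no term. Of these, Ej00029783 rose in both salt groups and is described below, so the step that makes GABA cannot be placed from the terms alone. Glutamate decarboxylase, which makes GABA, had 1 tested member with that term, Ej00013722, with 22.5, 22.6 and 20.1 TPM in CK, 17.9, 36.3 and 30 in ST and 17, 13.3 and 16.7 in MTST. ST minus CK did not pass (0.30, limma adjusted p = 0.24), and MTST minus ST passed on the TPM scale only (-0.76, adjusted p = 0.019) and was lost without ST replicate 2 or 3 or MTST replicate 2. Succinate-semialdehyde dehydrogenase, which takes the carbon on to succinate, was at 19.5 ± 0.913, 24.8 ± 3.28 and 25 ± 2.38 TPM in its main gene Ej00067129. The 2 calls of this gene against CK passed on the TPM scale only. The call in ST minus CK was lost without CK replicate 1 or 3 or ST replicate 1 or 2. The call in MTST minus CK was lost without any 1 CK library or MTST replicate 1 or 3.

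At the border with proline metabolism, both genes for 1-pyrroline-5-carboxylate dehydrogenase, the last step of proline breakdown to glutamate, were higher in ST on the TPM scale only. Ej00065171 had 10.9, 9.66 and 10.1 TPM in CK, 17.9, 15.9 and 16.1 in ST and 12.1, 12.7 and 16.6 in MTST (0.65 for ST minus CK, limma adjusted p = 0.0014, or 0.23, adjusted p = 0.13, with median-of-ratios scaling). Ej00024659 had 9.76 ± 0.902, 16.1 ± 1.04 and 11 ± 1.47 TPM.

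The routes from aspartate and glutamine to arginine and the nucleotides had 15 tested members. Of these 1 rose (6.67%) and 3 fell (20%) in ST, against 22.8% and 10.6% of all tested genes. Amidophosphoribosyltransferase commits glutamine nitrogen to purine synthesis. Its main gene Ej00052313 had 80, 95.9 and 45 TPM in CK, 17, 13.4 and 13.9 in ST and 32.3, 30 and 34.3 in MTST, with no overlap between groups. It fell by 2.19 in ST (SE 0.23, limma adjusted p = 2.8e-05), rose by 1.08 in MTST minus ST (adjusted p = 0.005) and was lower in MTST than in CK by -1.10 (adjusted p = 0.0035). The other gene with this term, Ej00009904, had 16.2 ± 2.95, 18.4 ± 2.01 and 22.7 ± 0.880 TPM and neither rose nor fell under both scalings.

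Adenylosuccinate synthase, which adds aspartate on the way to AMP, had 3 tested genes, and the main one, Ej00010685, did not return in MTST. Ej00095730 was called lower in ST only with median-of-ratios scaling (-0.48). Ej00039193 was higher in ST on the TPM scale (0.52, limma adjusted p = 0.034). That call was lost with median-of-ratios scaling and without CK replicate 1 or 3 or ST replicate 1 or 2. Ej00010685 had 149, 149 and 146 TPM in CK, 99.1, 91.4 and 90.6 in ST and 90.6, 86.3 and 96.4 in MTST. It fell by 0.65 in ST (SE 0.07, limma adjusted p = 4.6e-05) and was lower in MTST than in CK by -0.70 (adjusted p = 8.2e-05), while MTST minus ST was -0.04 (95% interval -0.20 to 0.12) on the TPM scale and 0.20 (0.05 to 0.34) with median-of-ratios scaling. The third member that fell was the carbamoyl-phosphate synthase Ej00018857, at 3.81 ± 0.575, 1.45 ± 0.177 and 2.18 ± 0.461 TPM. Argininosuccinate synthase, which joins citrulline to aspartate for arginine, was the member that rose. Ej00067906 had 21.5, 24.5 and 21.9 TPM in CK, 35.7, 36.4 and 38.9 in ST and 24.5, 24.5 and 25.5 in MTST, a rise of 0.69 (SE 0.08, adjusted p = 7.7e-05) and a fall of 0.56 in MTST minus ST (adjusted p = 0.001).

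The remaining annotated members handle cyanate and amides, and none of the 5 rose or fell in ST, where 22.8% and 10.6% of all tested genes did. Cyanase, which breaks down cyanate, had 43.5, 44.7 and 42.2 TPM in CK, 51.4, 62.5 and 54.5 in ST and 59.1, 63 and 62.9 in MTST in its gene Ej00063550. It rose in MTST minus CK by 0.49 (SE 0.09, limma adjusted p = 0.0014), while its ST change of 0.36 (adjusted p = 0.0047) was -0.085 with median-of-ratios scaling. Of the 4 members with an omega-amidase term, Ej00075989 fell in MTST minus ST, from 6.47 ± 2.53 to 2.42 ± 0.265 TPM (-1.08, adjusted p = 0.0042).

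The 25 members without a function term included some of the largest values and changes. Of the 17 tested, 5 rose (29.4%) and 5 fell (29.4%) in ST, against 22.8% and 10.6% of all tested genes. In MTST minus ST 4 rose (23.5%) and 3 fell (17.6%), against 7.89% and 13.7% of all. Ej00075831, whose only map is alanine, aspartate and glutamate metabolism, changed most of all members. It had 3.69, 2.92 and 3.42 TPM in CK, 134, 91.6 and 92.4 in ST and 5.03, 1.19 and 4.1 in MTST. The ST mean was 31.7-fold above CK (log2 4.60, SE 0.32, limma adjusted p = 2.6e-06), MTST fell by 4.69 from ST (adjusted p = 2.4e-05), and MTST overlapped with CK (-0.09, 95% interval -0.80 to 0.62). It rested on 1720 to 2527 reads per library in ST and 25 to 106 in the other libraries. The other members on this map alone carry an asparagine synthetase or omega-amidase term, apart from 1 that also has no term.

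Ej00029783 rose in both salt groups and did not differ detectably between them. It had 7.83, 5.64 and 7.86 TPM in CK, 65.3, 41.5 and 44.9 in ST and 58.4, 50.5 and 50.3 in MTST. The rise was 7.11-fold in ST (log2 2.65, SE 0.17, limma adjusted p = 1.8e-06) and 7.47-fold in MTST (2.75, adjusted p = 7.5e-06), and MTST minus ST was 0.09 (95% interval -0.29 to 0.48). Its map combination is that of the glutamate decarboxylase genes, which other genes can share.

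The combination of maps that holds both glutamine synthetase genes had 7 members, of which 5 have no function term and 3 of those were tested. Ej00013780 was among the most abundant members, with 2503, 2689 and 1858 TPM in CK, 1028, 1181 and 1090 in ST and 2311, 2637 and 2814 in MTST. It fell by 1.08 in ST (SE 0.15, limma adjusted p = 0.00019) and rose by 1.23 in MTST (adjusted p = 0.00038), where it overlapped with CK. Ej00029541 did the same at a far lower level, with 12.7, 9.7 and 12.1 TPM in CK, 1.98, 3.35 and 2.59 in ST and 10.7, 10.9 and 11.7 in MTST (-1.79, adjusted p = 1.1e-05, and 1.75, adjusted p = 8.5e-05). The remaining one rose in ST and stayed up, at 684 ± 55.9 TPM in CK, 1356 ± 160 in ST and 1437 ± 72.0 in MTST. Its ratio to Ej00013780 was 0.269 to 0.334 in CK, 1.14 to 1.29 in ST and 0.530 to 0.587 in MTST (exact permutation p = 0.1 in each comparison, the smallest possible, for a pair chosen after its values were seen). The summed level of the 7 members, taken on the TPM scale only, was 3948 ± 509 in CK, 2892 ± 198 in ST and 4633 ± 350 in MTST.

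The neighbouring genes of the pathway were counted by fixed annotation lists. Of all tested genes, 22.8% rose and 10.6% fell in ST, 7.89% and 13.7% in MTST minus ST, and 17.1% and 10.9% in MTST minus CK. The lists were not tested against these shares. Of 15 tested genes with an ammonium transporter term, 6 rose and 3 fell in ST, and 3 rose and 6 fell in MTST minus ST. Of 59 tested genes with an amino acid transporter term, 16 rose and 13 fell in ST, and 5 rose and 13 fell in MTST minus ST. Of 13 tested genes annotated to nitrate transport that are not members, 5 rose and 2 fell in ST and 6 rose and 1 fell in MTST minus CK. Of the 13 tested genes on either map that the rule left out, 5 rose and 3 fell in ST.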

How the data were processed

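The FPKM values per gene were deposited by the authors, whose pipeline ran read trimming (Trim-Galore, Trimmomatic), alignment by HISAT2 against the genome of loquat JFZ, and featureCounts of Rsubread. For versions, strand settings and the treatment of reads shared by similar genes, the sources used here give no statement, so levels of near-identical copies are uncertain. The deposited table also holds the authors' group averages and DESeq2 fold changes and p-values, which were not used.

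FPKM was rescaled to TPM. Whole reads were recovered from the steps of the FPKM values for 31458 of 31458 genes above 0 (tolerance 1e-05), which gave 99.979% to 99.984% of the library totals. Groups were compared with limma 3.58.1 in R 4.3.3 (mean-variance trend) on log2(TPM + 1), in 1 fit of 9 libraries over 23641 genes with at least 1 TPM in at least 3 libraries, with Benjamini-Hochberg adjustment over all of them and a threshold of 0.05. Fold changes on this scale understate the change of weak genes. The test uses 1 estimate of the spread per gene, taken between the samples within all 3 groups and moderated over the tested genes. Each comparison therefore also draws on the spread of the group that it leaves out. Replicates differed by more than counting noise (mean chi-square per gene 3.11 to 27.2). Tables were made in pandas 2.3.3 and numpy 2.4.6 under Python 3.11.15 and drawn with matplotlib 3.10.9. The fit was also run on simulated reads in which a small set of genes changed, in both directions. These reads held no shift of the typical gene, so the choice of scaling was not tested by them.

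Named genes were the most abundant member of each role list, up to 5 higher and 5 lower per comparison by fold change (adjusted p at most 0.05, mean of at least 5 TPM, no overlap between groups), and up to 5 called opposite ways in ST minus CK and MTST minus ST. Of members without a function term, at most 2 that rose and 2 that fell are printed by identifier. Further members were added, after their values were seen, to complete a role. The members and lists were chosen with earlier results of these data known.

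Alternatives were median-of-ratios scaling, FPKM in place of TPM, a pseudocount of 0.1, no filter, limma-voom on recovered reads, a fit of only the groups compared, a replicate block and leaving out each library.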

Additional observations from a re-analysis of the deposited data

How the results depend on the processing

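The counts of called members and their median moved with the scaling and with the libraries used. With median-of-ratios scaling, ST minus CK had 14 higher and 29 lower members and a median log2 fold change of -0.25, MTST minus ST had 8 lower and a median of 0.17, and MTST minus CK had 12 higher and 25 lower and a median of -0.19. With FPKM as deposited the median of ST minus CK was 0.097 and that of MTST minus ST 0.022, with 13 members lower in MTST minus ST, and limma-voom gave medians of 0.10 and 0.022. Leaving out 1 library gave a median of 0.13 to 0.25 and 26 to 31 higher members in ST minus CK, 10 to 19 lower members in MTST minus ST, and 10 to 21 lower members and a median of -0.022 to 0.091 in MTST minus CK. Among the named members, 517 of 546 values under other settings and 646 of 702 with 1 library left out kept direction and call. Apart from Ej00063550 in ST minus CK, those that changed sign had not passed the test before. With median-of-ratios scaling, ST minus CK was -0.31 for Ej00048704 and -0.085 for Ej00063550, MTST minus CK was -0.061 for Ej00013780 and MTST minus ST was 0.20 for Ej00010685, which was 0.043 with FPKM and 0.042 with limma-voom. With 1 library left out, ST minus CK of Ej00048704 ranged from -0.082 (without ST replicate 2) to 0.37. MTST minus ST ranged for Ej00010685 from -0.082 to 6.2e-05 (without ST replicate 1), for Ej00029783 from -0.032 (without ST replicate 2) to 0.29, for Ej00065407 from -0.059 (without MTST replicate 2) to 0.24 and for the abundant member without a term that stayed up in MTST from -0.0096 (without ST replicate 1) to 0.16. MTST minus CK ranged for Ej00075831 from -0.37 to 0.36 (without MTST replicate 2), for Ej00029541 from -0.14 to 0.032 (without CK replicate 1; 0.0035 without CK replicate 3) and for Ej00013780 from -0.0089 (without CK replicate 3) to 0.26. The causes were not tested.

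Same-numbered libraries did not deviate together (correlations of -0.15 to 0.083), and not every library correlated best with its own number, so the numbers were not taken as pairs. With a replicate block, 31 members were higher and 18 lower in ST minus CK, 16 and 18 in MTST minus ST, and 17 and 17 in MTST minus CK. Depth limits the 21 untested members and those near 1 TPM.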

Other observations

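Among the members without a function term, 2 lie on the map of nicotinate and nicotinamide metabolism as well, where NAD is made starting from aspartate. Both fell in ST and stayed low in MTST. The weaker one had 19.1, 19.4 and 17 TPM in CK, 7.63, 4.51 and 5.5 in ST and 4.1, 3.59 and 4.04 in MTST, so every salt library was below every CK library. It was lower by -1.52 in ST minus CK (limma adjusted p = 3.3e-05) and by -1.99 in MTST minus CK (adjusted p = 2e-05). The other had 32.3 ± 3.73, 19.7 ± 2.29 and 18.6 ± 1.37 TPM (SD, n = 3), with changes of -0.69 (adjusted p = 0.00065) and -0.76 (adjusted p = 0.00074).

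A member with no function term that lies on the nitrogen map alone had 12.6, 11.1 and 13.3 TPM in CK, 44.6, 32.4 and 38.2 in ST and 23.5, 25.3 and 31.4 in MTST, and rose in both salt groups against CK (1.55, limma adjusted p = 1.2e-05, and 1.05, adjusted p = 0.00033). Of the pair that also lies on the cyanoamino acid and glyoxylate maps, 1 fell in ST, from 23.4, 27.9 and 10.5 TPM in CK to 3.83, 4.14 and 2.67 (-2.16, adjusted p = 0.00025), and had 7.89, 7.16 and 12.2 TPM in MTST. Its rise over ST of 1.13 (adjusted p = 0.02) was lost without ST replicate 3 or MTST replicate 3. A second member on the alanine, aspartate and glutamate map alone had 4.27 ± 0.363, 9.82 ± 4.79 and 3.61 ± 0.953 TPM in CK, ST and MTST and fell in MTST minus ST (-1.16, adjusted p = 0.0085).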
